A study of Mus musculus with 8 samples.

Results

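The transcription factors of the epithelial to mesenchymal transition (EMT) were followed in tumor cells sorted from breast cancer brain metastases (BCBM) of mice. A set of 10 was chosen by name, as the 7 factors that drive EMT (Snai1, Snai2, Snai3, Twist1, Twist2, Zeb1 and Zeb2) and 3 epithelial factors that act against them (Ovol1, Ovol2 and Grhl2), and they make up 10 of the 31894 genes of the count table. All 10 were found in the table.

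The BCBM of 4 mice (mice 57, 58, 67 and 70) were sorted into E-cadHI cells, with a high signal of the E-cad-mCFP reporter, and E-cadLO cells, which had lost it, and each population of each mouse was sequenced as 1 bulk mRNA library, giving 4 libraries of each and 8 in all. The labels describe both populations alike as strain FVB, genotype wild type and tissue brain metastasis tumor. Following the study's methods, the tumor cells of both populations came from PyMT E-cad-mCFP mice, in which the polyoma middle-T antigen under the mouse mammary tumor virus promoter drives mammary carcinomas and a cyan fluorescent protein marks E-cadherin. They were taken through serial transplantation in the brain, kept as organoids and injected into the brain of recipient mice, so the replicates are recipient mice. No treatment was given to the groups compared. The study's gates took single living cells, then tumor cells as positive for the nuclear label H2B-Dendra2 and low for tdTomato, and split these by CFP, a scheme that is meant to remove host cells. Purity was checked on reporter-positive cells alone.

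EMT is the program by which epithelial cells loosen their junctions and take on mesenchymal features, and it is well known from development and from invading carcinoma cells. The Snail proteins (Snai1 to Snai3) and the Zeb proteins bind E-box sequences in the promoters of epithelial genes such as Cdh1, which encodes E-cadherin, and repress them, and the Twist proteins act upstream of or beside them. The Ovo-like zinc finger proteins Ovol1 and Ovol2 and the Grainyhead-like protein Grhl2 maintain epithelial identity, in part by repressing Zeb1, and the microRNAs of the miR-200 family and the Zeb factors repress each other.

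Library totals ranged from 9102781 to 15769200 counts. The limit set by a count of 0 (3 counts) was 0.190 to 0.330 CPM (counts scaled to a fixed library size), which covers counting error only. Before any comparison, 5 libraries stood apart. The E-cadLO library of mouse 57 held 1040 CPM of the fibroblast markers against 18.5 to 70.9 CPM in the other E-cadLO libraries, the E-cadLO library of mouse 58 gave 14.4% of its counts to Gm42418, which overlaps ribosomal RNA sequence, and the E-cadHI library of mouse 58 had counts in 25216 genes against 17081 to 21179 in the others. Both libraries of mouse 70 were the highest of their groups in oligodendrocyte markers, at 8638 CPM in E-cadHI against 562 to 1655 in the others and at 34540 CPM in E-cadLO against 1319 to 4322, and in astrocyte markers, at 3838 against 1149 to 1319 and at 10830 against 735.5 to 2042. Cdh1, the gene of the sorted protein, measured 112 ± 15.96 normalized CPM in E-cadHI and 99.2 ± 55.8 in E-cadLO (SD, n = 4). Its RNA was lower in E-cadLO in 3 of 4 mice, with log2 ratios within mice of -0.66, 0.46, -0.15 and -0.86 for mice 57, 58, 67 and 70, and the quasi-likelihood test of edgeR gave an adjusted p (Benjamini-Hochberg) of 0.809. The tumor epithelial markers (10 keratins, claudins and related genes) summed to 7711 to 10480 CPM in E-cadHI and 5748 to 14640 CPM in E-cadLO, and were higher in E-cadLO in 2 of 4 mice, so the keratin and claudin RNA of the labelled tumor cells was present in every library. Since bulk libraries were measured, fewer cells of a type and less RNA per cell cannot be told apart.

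Levels are given below as CPM after TMM scaling (normalized CPM), and log2 ratios within a mouse as E-cadLO over E-cadHI on normalized CPM plus 0.5. Of the 10 members, 8 passed the filter on low counts and were tested, while Snai2 and Twist2 stayed below it. In the test of the 4 E-cadLO against the 4 E-cadHI libraries, no member passed an adjusted p of 0.05, and neither did any of the 13598 genes tested (0.0% higher and 0.0% lower). When the mouse entered as replicate block, the test called 99 genes higher in E-cadLO (0.728%) and none lower (0.0%), and no member was among them. At an unadjusted p of 0.05, Zeb2 and Ovol1 were higher and Grhl2 was lower in both fits, beside 1109 genes higher (8.16%) and 790 lower (5.81%) without the block, and 12.3% higher and 7.33% lower with it. The E-cadHI and E-cadLO values of all 10 members overlapped between the groups, whereas 3.9% of tested genes lay wholly higher and 4.2% wholly lower in E-cadLO.

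**Figure D1:**
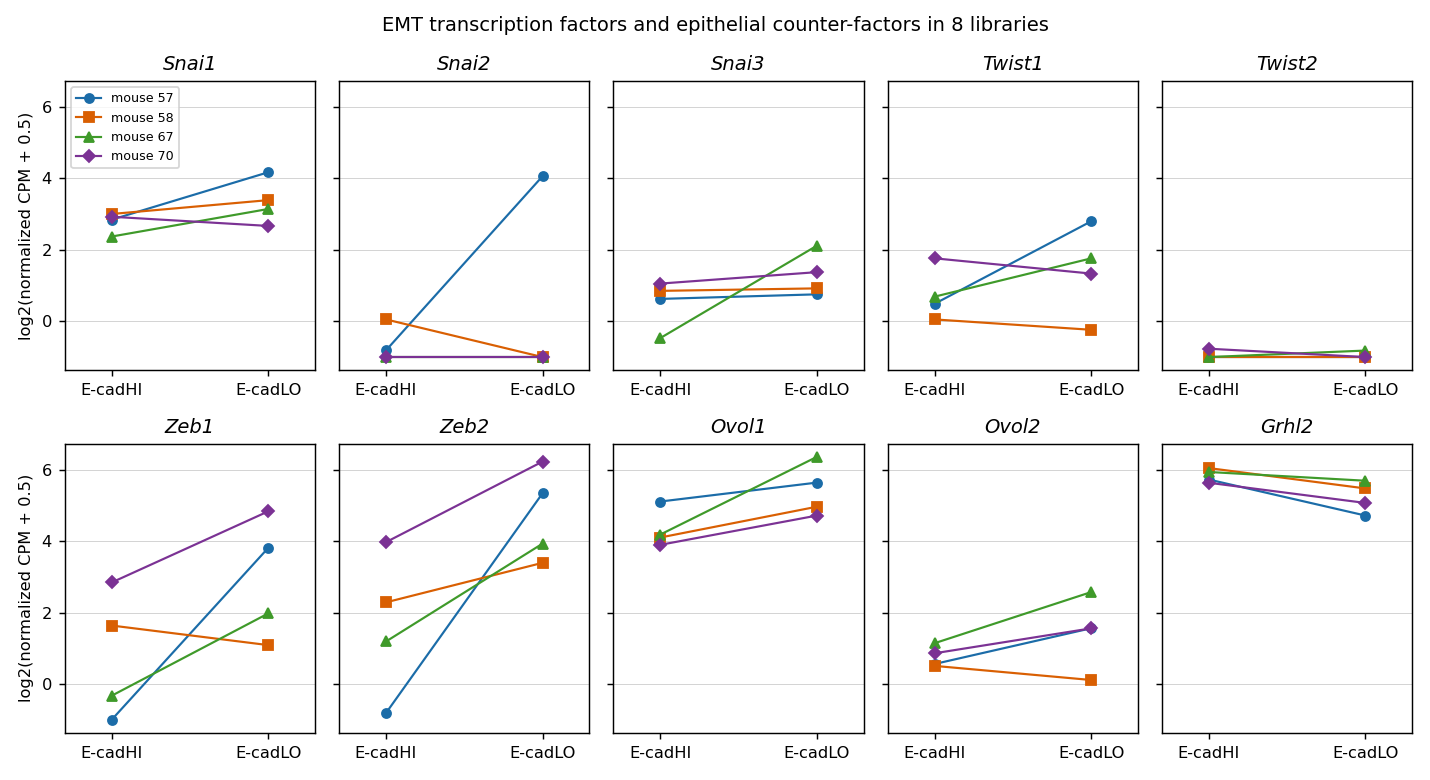
Log2 of normalized CPM plus 0.5 of the 10 members, 1 panel each, with 1 point per library and a line joining the E-cadHI and E-cadLO libraries of a mouse. Ovol1 and Grhl2 were present in every library, Zeb1 and Zeb2 spread widely within each population, and Snai2 was high in 1 E-cadLO library alone.

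Compared per length, as TPM (counts divided by exonic length and scaled to a fixed sum), the same 3 members had the highest medians in both populations. In E-cadHI the order of the median levels was Grhl2 (18.9 TPM), Ovol1 (14.1 TPM) and Snai1 (11.4 TPM), followed by Snai3 (2.01 TPM), Twist1 (1.79 TPM), Ovol2 (1.45 TPM), Zeb2 (0.436 TPM) and Zeb1 (0.395 TPM). In E-cadLO it was Ovol1 (37.7 TPM), Snai1 (15.4 TPM) and Grhl2 (12.04 TPM), then Zeb2 (4.88 TPM), Twist1 (4.19 TPM), Ovol2 (3.63 TPM), Snai3 (2.99 TPM) and Zeb1 (2.98 TPM). Snai2 and Twist2 came last in both, at medians of 0 in E-cadLO. The ranges of neighbours in this order overlapped everywhere except between Snai1 and Snai3 in E-cadHI, and between Grhl2 and Zeb2 in E-cadLO. Members further down still reached above Grhl2 in E-cadLO of mouse 57, where Snai2 had 30.3, Twist1 15.0 and Grhl2 11.3 TPM. Library by library, Grhl2 was above Ovol1 in 3 of 4 E-cadHI libraries, Ovol1 was above Snai1 in 4 of 4 E-cadLO libraries, and Snai1 was above Grhl2 in 2 of 4 E-cadLO libraries.

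Snai1 encodes Snail, the zinc finger repressor of Cdh1, and lies at chr2:167538195-167542814 on the plus strand of GRCm38. It had counts of 96, 98, 63 and 81 in E-cadHI of mice 57, 58, 67 and 70, and of 236, 86, 124 and 84 in E-cadLO. The normalized levels were 6.69, 7.53, 4.68 and 7.11 CPM in E-cadHI and 17.5, 10, 8.35 and 5.87 CPM in E-cadLO. Snail RNA was therefore found in all 8 libraries, and 3 of 4 mice had more of it in E-cadLO, mouse 57 the most. The log2 fold change was 0.68 (SE 0.39, adjusted p = 0.436 by edgeR), and it was 0.29 without the E-cadLO library of mouse 57. The promoter of Snai1 is shown because it carries, within the 250 bases before the start site, the E-box CACCTG that Snail and Zeb proteins bind (in capitals, with its first base at position -126 counted back from the start site). It is the RefSeq sequence at chr2:167537945-167538194 of GRCm38.p6, plus strand.
Snai1 promoter: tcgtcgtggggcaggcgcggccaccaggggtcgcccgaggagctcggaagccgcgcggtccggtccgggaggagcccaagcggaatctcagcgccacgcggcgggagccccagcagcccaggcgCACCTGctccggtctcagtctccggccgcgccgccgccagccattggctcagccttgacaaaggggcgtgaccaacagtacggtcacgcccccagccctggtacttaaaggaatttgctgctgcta

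RefSeq promoters were found for 5 of the 10 members (Snai1, Twist1, Twist2, Zeb2 and Ovol2, with 8 start sites in all) and not for Snai2, Snai3, Zeb1, Ovol1 and Grhl2. Reading CACCTG on either strand (on the other strand it reads CAGGTG), 1 of these 8 promoters held it, that of Snai1, against 17.2% of all 32851 promoters of the same length. Neither the Ovo motif CCGTTA nor the Grainyhead motif AACCGGTT, read on both strands, was in any of the 8, and they were in 2.18% and 0.12% of all promoters. None of the 3 motifs contains another. A motif is a match of letters and says nothing on binding in these cells.

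Snai2, which encodes Slug (chr16:14705852-14709395, plus strand), was a matter of 1 library. Its counts were 1, 7, 0 and 0 in E-cadHI and 218, 0, 0 and 0 in E-cadLO of mice 57, 58, 67 and 70. In the E-cadLO cells of mouse 57 it thus reached 16.2 normalized CPM, 232 times its level in the E-cadHI cells of that mouse (95% counting interval 41.3 to 9221, from 1 count in E-cadHI), while the other 3 E-cadLO libraries held no count. The mean log2 ratio over the 4 mice was 0.95 with mouse 57 and -0.35 without it. The same library held 1040 CPM of the fibroblast markers (10 genes, Col1a1, Col1a2 and Col3a1 among them), and in the other E-cadLO libraries, where Snai2 was at 0, these markers summed to 18.5 to 70.9 CPM. The part of the fibroblast RNA in the Snai2 count was not tested.

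Snai3, the least studied of the Snail genes (chr8:122454208-122460733, minus strand), had 15, 17, 3 and 18 counts in E-cadHI and 16, 12, 57 and 30 in E-cadLO. It was higher in E-cadLO in 4 of 4 mice, as were 16.8% of all genes tested. The log2 ratios were only 0.13 and 0.07 in mice 57 and 58, against 2.59 in mouse 67. In edgeR the log2 fold change was 1.04 (SE 0.67, adjusted p = 0.479 by edgeR), and 0.26 without mouse 67.

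Twist1, a basic helix-loop-helix factor of mesoderm and neural crest (chr12:33957671-33959817, plus strand), was higher in E-cadLO in 2 of 4 mice and lower in 2. Its counts were 13, 7, 15 and 33 in E-cadHI and 87, 3, 43 and 29 in E-cadLO. The log2 fold change of 1.11 (SE 0.83, adjusted p = 0.528 by edgeR) became 0.36 without the E-cadLO library of mouse 57. Twist2, its close relative (chr1:91801461-91848028, plus strand), was at or below the limit of detection, with 1 count in E-cadHI of mouse 70, 1 in E-cadLO of mouse 67 and none in the other 6 libraries.

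The Zeb genes had the largest log2 fold changes of the 8 tested members, and large standard errors. Zeb2, a zinc finger homeobox repressor (chr2:44983632-45117395, minus strand), had 1, 57, 24 and 173 counts in E-cadHI and 538, 86, 219 and 1065 in E-cadLO of mice 57, 58, 67 and 70. Its normalized levels were 0.0697, 4.38, 1.78 and 15.2 CPM in E-cadHI and 40.0, 10, 14.7 and 74.4 CPM in E-cadLO. Zeb2 was higher in E-cadLO in every mouse, as were 16.8% of all genes tested. Even so, the E-cadHI level of mouse 70 exceeded the E-cadLO levels of mice 58 and 67. The log2 ratios within mice were 6.15, 1.11, 2.74 and 2.26, with a mean of 3.06 ± 2.17 (SD, n = 4). In the exact sign-flip test over mice (two-sided) this gave p = 0.125, which is the smallest value that 4 mice allow. Its fitted log2 fold change was 2.71 (SE 1.11, adjusted p = 0.334 by edgeR), and 3.05 (SE 0.90, adjusted p = 0.163) with the replicate block. The call of Zeb2 in the blocked fit varied with the mouse left out. Leaving out mouse 57 gave a smaller log2 fold change of 2.14 with an adjusted p of 0.0101 by edgeR. That fit called 3.06% of genes higher and 0.173% lower. Without mouse 58, 67 or 70 Zeb2 was not called (adjusted p = 0.151, 0.484 and 0.317 by edgeR).

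Zeb1 (chr18:5591860-5775467, plus strand), the paralog of Zeb2 and the direct target of Grhl2 and of the Ovol proteins, had 0, 34, 4 and 76 counts in E-cadHI and 182, 14, 51 and 401 in E-cadLO. The E-cadLO cells of mouse 57 held at least 64.7-fold more Zeb1 than its E-cadHI cells, where the count of 0 was replaced by the limit of 3 counts in that library. Mouse 58 went the other way, with 2.61 normalized CPM in E-cadHI and 1.63 in E-cadLO, and mice 67 and 70 had log2 ratios of 2.30 and 1.99. Over all libraries the log2 fold change was 2.29 (SE 1.31, adjusted p = 0.436 by edgeR), and 2.66 (SE 1.204, adjusted p = 0.27) with the replicate block, where it was 1.53 without mouse 57 and 3.86 without mouse 58. The overlapping genes Gm10125 and Gm16147 held 0 to 9 and 0 to 3 counts per library, and Zeb2os, the antisense gene of Zeb2, held 0 to 3. How reads that fall in more than 1 gene were counted is not stated, so the number of shared reads is not known.

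**Figure D2:**
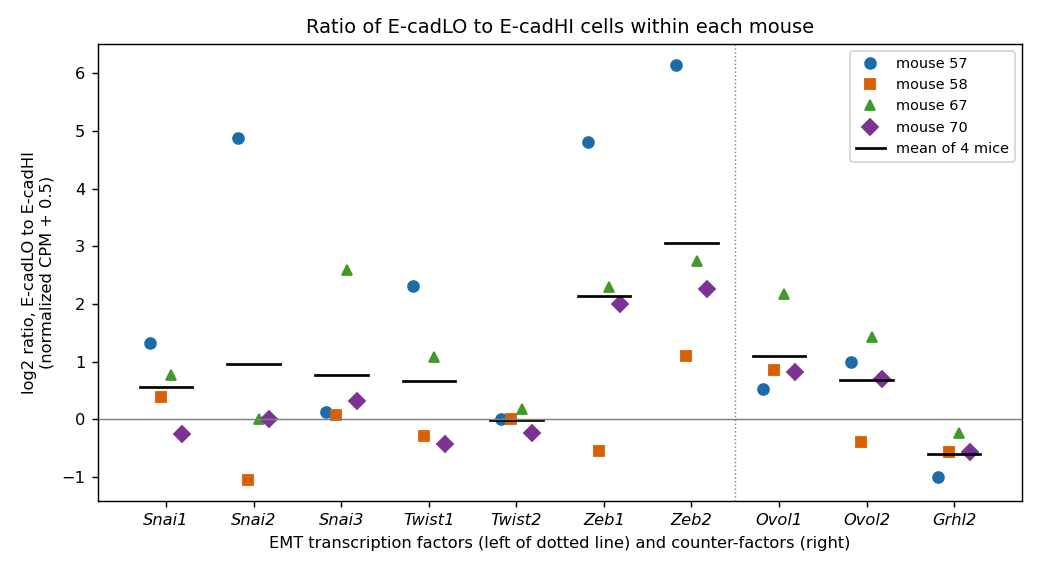
Log2 ratio of E-cadLO to E-cadHI within each mouse (normalized CPM plus 0.5) for the 10 members, with 1 symbol per mouse and a bar at the mean of the 4 mice. Zeb2 and Ovol1 lie above 0 and Grhl2 below 0 in all 4 mice, while mouse 57 lies far above the others for Snai2, Zeb1 and Zeb2.

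Zeb2 and Zeb1 are given here beside markers of microglia and macrophages, resident immune cells of the brain that are known to express Zeb2. These 15 markers summed to 39.1, 97.1, 133 and 309.6 CPM in E-cadHI of mice 57, 58, 67 and 70, and to 279, 253, 901 and 1120 CPM in E-cadLO. Their log2 ratios were 2.83, 1.38, 2.75 and 1.86, beside 6.15, 1.11, 2.74 and 2.26 for Zeb2 and 4.81, -0.55, 2.30 and 1.99 for Zeb1. All 15 had a positive log2 fold change, and 14 were higher in E-cadLO in every mouse, beside 16.8% of all genes tested. With the replicate block 5 of the 15, such as Cx3cr1 and Itgam, were called higher, beside 0.728% of all genes tested. No marker of this list was at 0 throughout, and only Siglech in E-cadHI and Ptprc in E-cadLO were at 0 in some library. Zeb2 was lowest in the library with the fewest of these markers and highest in the one with the most, but the order did not hold between them, since E-cadLO of mouse 67 had 901 CPM of markers and 14.7 CPM of Zeb2, and E-cadLO of mouse 57 had 279 CPM of markers and 40.0 CPM of Zeb2. Zeb1 and Zeb2 were also highest of each group in mouse 70, where the oligodendrocyte and astrocyte markers were highest. In mouse 57 Zeb2 differed between the populations by more than the markers did, and in the other 3 mice the 2 log2 ratios lay within 0.5 of each other. The Dendra2 gate is meant to remove such cells, but purity was checked on reporter-positive cells alone. The part of microglia and macrophage RNA in the Zeb counts was not tested.

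**Figure D3:**
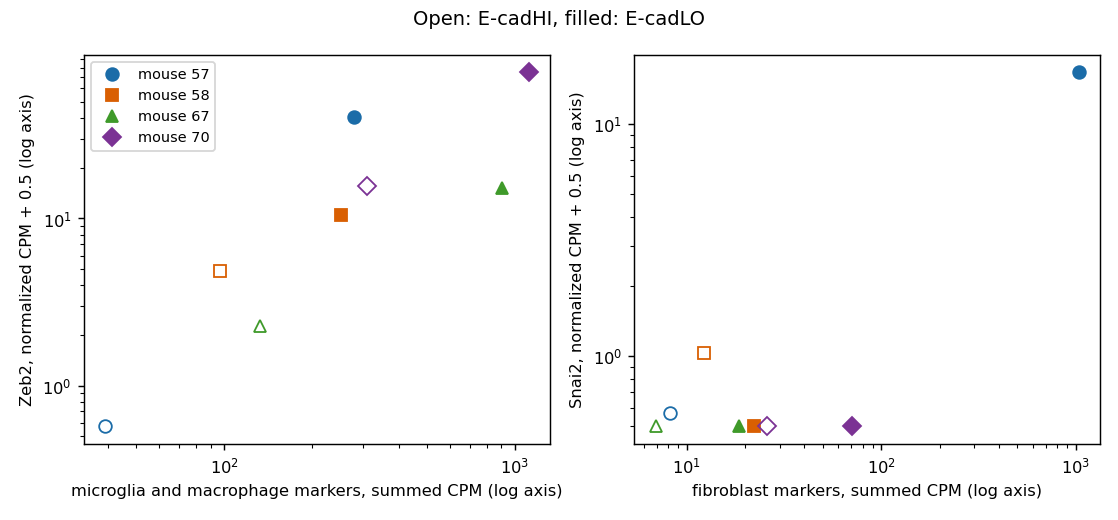
Left, Zeb2 (normalized CPM plus 0.5) against the summed CPM of 15 microglia and macrophage markers, and right, Snai2 against the summed CPM of 10 fibroblast markers, in the 8 libraries, all on log axes, with open symbols for E-cadHI and filled symbols for E-cadLO. Zeb2 was lowest where the microglia markers were lowest (39.1 CPM), and the 1 library with Snai2 above 10 CPM was the one with 1040 CPM of fibroblast markers.

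For markers of other cell types, the replicate block called 4 of 10 astrocyte, 2 of 10 oligodendrocyte and 2 of 9 neuron markers higher in E-cadLO. It called none of the tested endothelial, fibroblast and mural markers, and 0.728% of all genes tested were called higher. The summed oligodendrocyte, neuron, endothelial and fibroblast markers were higher in 4 of 4 mice, and the astrocyte and mural markers in 3. Aldoc weighed most in the astrocyte sum, at means of 1238 normalized CPM in E-cadHI and 1714 in E-cadLO. In mouse 57 the astrocyte sum had a log2 ratio of -0.64 and Aldoc -3.02, but the median of the 10 astrocyte markers was 1.85. Flt1 weighed most in the endothelial sum, at means of 49.7 and 62.3 normalized CPM. Of 8 mural markers 3 had a negative log2 fold change. The median log2 fold change was 1.71 for 10 astrocyte markers, 1.77 for 10 oligodendrocyte markers, 1.94 for 9 tested neuron markers, 1.33 for 7 endothelial markers, 2.24 for 7 fibroblast markers and 0.62 for 8 mural markers, against 0.06 over all genes tested. Summed, the oligodendrocyte markers ranged from 562 to 8638 CPM in E-cadHI and 1319 to 34540 CPM in E-cadLO, the astrocyte markers from 1149 to 3838 and 735.5 to 10830 CPM, and the neuron markers from 31.7 to 155 and 54.8 to 529 CPM. The endothelial markers ranged from 41.9 to 77.2 and 60.0 to 108 CPM, and the mural markers from 38.6 to 101 and 45.1 to 245 CPM. The fibroblast markers ranged from 6.91 to 25.7 CPM in E-cadHI. Lymphocyte markers stayed between 0.0697 and 22.2 CPM. Of the neutrophil list, which summed to 12850 to 19370 CPM in E-cadHI and 2632 to 12600 CPM in E-cadLO, Ltf alone, also a milk protein, made up 99.6 to 99.9%, and markers such as Ly6g were at 0 in some library of each group. Among markers at 0 in at least 1 library were Olig2 in both groups, Gad2 and Slc17a7 in both groups, and Lum and Fbln1 in both groups. The part of any of these cell types in the members' values was not tested.

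The miR-200 family is shown because the 3′ UTRs of the Zeb genes stand out among the members by their matches to it. The 5 mature microRNAs, from RefSeq (GRCm38.p6), fall into 2 groups by the seed, bases 2 to 8, given in capitals.
mmu-miR-200b-3p: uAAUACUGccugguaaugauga
mmu-miR-200c-3p: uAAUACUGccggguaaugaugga
mmu-miR-429-3p: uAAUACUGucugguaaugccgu
mmu-miR-141-3p: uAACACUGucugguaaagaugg
mmu-miR-200a-3p: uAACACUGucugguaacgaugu

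Zeb1 and Zeb2 each held 9 seed matches in their longest annotated 3′ UTR, 5 to the seed AAUACUG and 4 to AACACUG. As many were found in 3 of the 21028 genes with a 3′ UTR (0.014%), and 74.2% of genes had none. Snai2 held 2 matches, Snai1 and Grhl2 1 each, and Snai3, Twist1, Twist2, Ovol1 and Ovol2 none. UTR length differed between members, from 428 bases in Ovol2 to 2401 in Zeb1 and 4941 in Zeb2. Of the Zeb2 matches, 4 are given with the 14 bases before them and the 1 after, the match in capitals, 2 for each seed.
Zeb2 site for the seed AAUACUG: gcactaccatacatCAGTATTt
Zeb2 site for the seed AAUACUG: tgaagcacccgtgtCAGTATTa
Zeb2 site for the seed AACACUG: gtgccatccttgtaCAGTGTTc
Zeb2 site for the seed AACACUG: ctttgcaccagcttCAGTGTTa
The libraries were made from polyadenylated RNA and do not measure mature microRNAs, so these matches describe the sequences only.

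Of the counter-factors, Ovol1 (chr19:5549137-5560575, minus strand) was the most abundant in E-cadLO. It had 488, 217, 238 and 164 counts in E-cadHI and 664, 264, 1212 and 369 in E-cadLO. In normalized CPM these were 34.0, 16.7, 17.7 and 14.4 in E-cadHI and 49.3, 30.7, 81.6 and 25.8 in E-cadLO. Ovol1 was higher in E-cadLO in 4 of 4 mice, as were 16.8% of all genes tested, and only the E-cadHI level of mouse 57 reached into the E-cadLO range. The log2 ratios were 0.53, 0.86, 2.17 and 0.82, with a mean of 1.10 ± 0.73 (SD, n = 4) and p = 0.125 in the exact sign-flip test. The log2 fold change was 1.18 (SE 0.41, adjusted p = 0.303 by edgeR), and 1.11 (SE 0.29, adjusted p = 0.143) with the replicate block. Ovol1 was called in 2 other fits. DESeq2 with the replicate block gave a log2 fold change of 1.12 and an adjusted p of 0.00931, beside 6.77% of genes called higher and 1.35% lower in that fit, and the blocked edgeR fit without mouse 57 gave 1.29 and an adjusted p of 0.0443. On simulated data a larger share of the calls was false in the former fit than in edgeR. Those data held no difference between mice, so they do not decide how far this call can be trusted. The blocked edgeR fit did not call Ovol1 without mouse 58, 67 or 70 (adjusted p = 0.173, 0.456 and 0.299), and without mouse 67 the log2 fold change was 0.76 with the block and 0.73 without it. DESeq2 without the block, which called 2.48% of genes higher and 0.264% lower, called no member.

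Ovol2 (chr2:144305175-144332146, minus strand) was much less abundant. Its counts were 14, 12, 23 and 15 in E-cadHI and 33, 5, 81 and 35 in E-cadLO, higher in E-cadLO in 3 of 4 mice. In edgeR the log2 fold change was 1.15 (SE 0.65, adjusted p = 0.435 by edgeR).

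Grhl2 (chr15:37233036-37363569, plus strand) was the only member that was lower in E-cadLO in every mouse, which was the case for 14.2% of all genes tested. Its counts were 751, 853, 817 and 560 in E-cadHI and 347, 378, 760 and 473 in E-cadLO. In normalized CPM these were 52.3, 65.5, 60.7 and 49.2 in E-cadHI and 25.8, 44.0, 51.2 and 33.1 in E-cadLO, so that the groups met only at mouse 67 in E-cadLO and mouse 70 in E-cadHI. The log2 ratios were -1.01, -0.57, -0.25 and -0.57, with a mean of -0.60 ± 0.31 (SD, n = 4) and p = 0.125 in the exact sign-flip test. Its fitted log2 fold change was -0.57 (SE 0.23, adjusted p = 0.331 by edgeR), and -0.60 (SE 0.18, adjusted p = 0.169) with the replicate block. The antisense gene Gm16136 overlaps the start of Grhl2 and had 63.2 ± 14.9 normalized CPM in E-cadHI and 33.7 ± 12.7 in E-cadLO (SD, n = 4), with log2 ratios of -2.38, -0.42, -0.58 and -0.51. As the sources used here do not state whether counting used strand, reads from the 2 genes cannot be told apart where they overlap. The pseudogene Gm16138 and the intronic gene Gm16137, which also overlap Grhl2, held 0 to 14 counts per library.

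Ovol1 and Grhl2, which are both held to guard the epithelial state, thus went in opposite directions in every mouse. The ratio of the Ovol1 count to the Grhl2 count, which does not depend on library scaling, was 0.650, 0.254, 0.291 and 0.293 in E-cadHI of mice 57, 58, 67 and 70, and 1.91, 0.698, 1.60 and 0.780 in E-cadLO. All 4 E-cadLO ratios lay above all 4 E-cadHI ratios, but narrowly, with 0.698 as the lowest in E-cadLO and 0.650 as the highest in E-cadHI. On the log2 scale the ratio was higher in E-cadLO by 1.56, 1.46, 2.45 and 1.41, on average by 1.72 ± 0.49 (SD, n = 4). This pair was chosen after the values were seen, so no test is given. With Ovol1 higher and Grhl2 lower in every mouse, their ratio had to rise in every mouse. How many other pairs of genes separate the groups was not determined. Over the same mice the tumor epithelial markers had log2 ratios of -0.87, 0.32, 0.50 and -0.17.

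**Figure D4:**
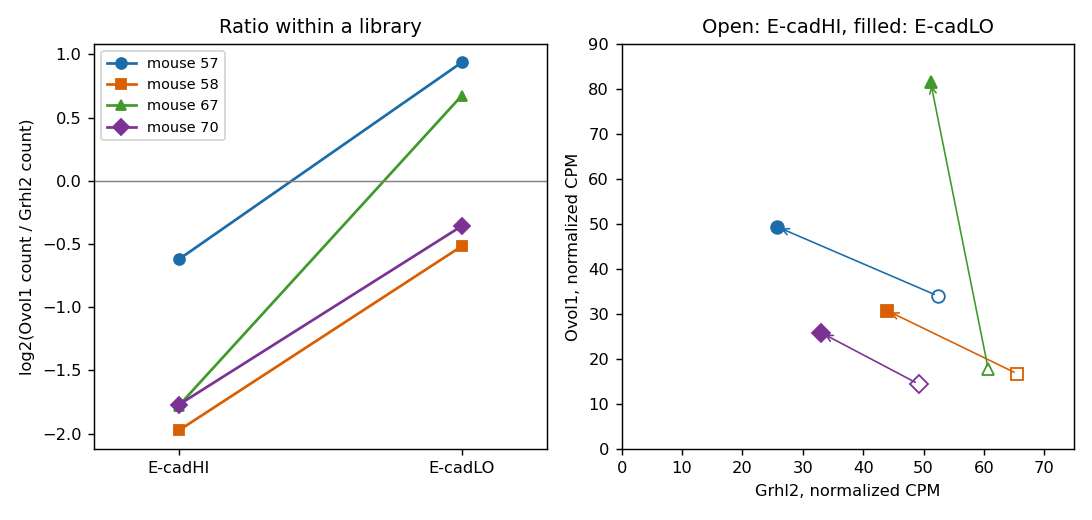
Left, log2 of the Ovol1 count over the Grhl2 count within each library, with a line joining the populations of a mouse, and right, normalized CPM of Ovol1 against Grhl2, with an arrow from the open symbol (E-cadHI) to the filled symbol (E-cadLO) of each mouse. All 4 lines go up, by 1.41 to 2.45, and all 4 arrows point to more Ovol1 and less Grhl2.

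The balance of all members was less uniform. The 7 EMT factors made up 24.8, 33.7, 22.9 and 45.0% of the members' summed TPM in E-cadHI of mice 57, 58, 67 and 70, and 59.5, 35.8, 24.5 and 50.4% in E-cadLO. The share was higher in E-cadLO in every mouse, but in mice 58, 67 and 70 by a few percentage points, and the 2 groups overlapped. In E-cadLO of mouse 57, the library with the most fibroblast markers, Snai2 gave 30.3 of the 101.4 TPM of the EMT factors. The summed counter-factors were also higher in E-cadLO in every mouse. They stood at 45.6, 35.49, 38.3 and 26.8 TPM in E-cadHI and 69.1, 35.52, 94.8 and 30.9 TPM in E-cadLO. Summed, the Zeb genes stood at 0.00977, 1.31, 0.351 and 3.62 TPM in E-cadHI and at 12.5, 1.65, 3.19 and 16.1 TPM in E-cadLO.

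Across the 8 libraries, Zeb1 and Zeb2 were the members most alike (Pearson r = 0.958 of log2 normalized CPM). Grhl2 ran against both (r = -0.71 with each), and Ovol1 and Ovol2 had r = 0.637. These correlations are over libraries that share mice, and they describe these libraries only. The tested genes most like each member, by the highest r, were Cxcl14, Rcan2 and Ranbp9 for Zeb2 (r = 0.995, 0.985 and 0.985), B230312C02Rik, Col4a1 and Dok3 for Zeb1 (0.99, 0.981 and 0.979), Jun, Ankrd54 and Trim66 for Snai1 (0.985, 0.971 and 0.971) and Vav3, Fer and Tgif1 for Ovol1 (0.982, 0.969 and 0.961). For Grhl2 they were Atp10b, Nrm and Slc26a7 (0.966, 0.959 and 0.958), for Ovol2 Mgp, Cops2 and Necap1 (0.975, 0.974 and 0.967), for Twist1 Tmem237, Gm5148 and Bet1l (0.981, 0.978 and 0.971) and for Snai3 A330069E16Rik, Arfgef3 and Epc2 (0.968, 0.922 and 0.921).

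The members were set beside 6 lists of other genes of the EMT network, 144 genes in all, of which 121 passed the filter. None of these 121 was called in the edgeR fit with or without the replicate block. Over all genes tested, 7489 had a positive and 6109 a negative log2 fold change, with a median of 0.06. DESeq2 called 4 list genes higher, Mef2c, Lats2, Ajuba and Usp11, beside 2.48% of all genes. DESeq2 with the replicate block called 7 higher and 2 lower, beside 6.77% and 1.35% of all genes. The 2 lower ones were Gata3 and Elf5. These counts are of 143 list genes and lie close to or below the shares of all genes.

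The direct counterpart of the EMT factors is the set of epithelial genes that Snail and Zeb repress. Of 29 tested, 24 had a negative and 5 a positive log2 fold change, with a median of -0.25. The log2 fold changes were -1.001 (SE 0.41) for Muc1, a mucin of the apical surface, and -0.75 (SE 0.34) for Epcam, an epithelial adhesion molecule. Epcam measured 1270 ± 93.5 normalized CPM in E-cadHI and 753 ± 338 in E-cadLO (SD, n = 4). Muc1, Epcam, Patj and Ap1m2 were lower in E-cadLO in every mouse, whereas Crb3, a polarity protein, and Dsp, a desmosomal protein, were higher in every mouse, at 0.57 (SE 0.28) and 0.40 (SE 0.17), examples that were chosen after their values were seen. Some of these differences were close to 0, with log2 ratios in mouse 58 of -0.0015 for Ap1m2, -0.04 for Epcam and -0.06 for Muc1, in mouse 67 of -0.04 for Patj, and in mouse 70 of 0.02 for Crb3. None passed the test, and the smallest adjusted p of these 6 by edgeR was 0.325. Of the 29 tested targets, 4 were lower and 2 higher in every mouse, beside 14.2% and 16.8% of all genes tested.

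The promoters of 3 genes of this list are shown to let the E-boxes be seen beside the expression, those of Epcam and Ap1m2, with negative log2 fold changes, and of Crb3, with a positive one. The E-box CACCTG, or CAGGTG where it lies on the other strand, is in capitals. The sequences are the 250 bases before the RefSeq start (GRCm38.p6), at chr17:87635729-87635978 (plus strand) for Epcam, chr9:21312334-21312583 (minus strand) for Ap1m2, an adaptor subunit of epithelial sorting, and chr17:57061951-57062200 (plus strand) for Crb3.
Epcam promoter: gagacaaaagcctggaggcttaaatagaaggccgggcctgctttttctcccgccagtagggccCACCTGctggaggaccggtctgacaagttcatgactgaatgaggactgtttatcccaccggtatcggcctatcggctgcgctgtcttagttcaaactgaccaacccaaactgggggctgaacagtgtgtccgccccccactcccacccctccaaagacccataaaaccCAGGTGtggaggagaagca
Ap1m2 promoter: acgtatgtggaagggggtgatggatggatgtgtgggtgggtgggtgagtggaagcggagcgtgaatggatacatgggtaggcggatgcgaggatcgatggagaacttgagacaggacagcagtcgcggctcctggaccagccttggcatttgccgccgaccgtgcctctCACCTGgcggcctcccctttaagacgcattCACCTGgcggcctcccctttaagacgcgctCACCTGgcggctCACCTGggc
Crb3 promoter: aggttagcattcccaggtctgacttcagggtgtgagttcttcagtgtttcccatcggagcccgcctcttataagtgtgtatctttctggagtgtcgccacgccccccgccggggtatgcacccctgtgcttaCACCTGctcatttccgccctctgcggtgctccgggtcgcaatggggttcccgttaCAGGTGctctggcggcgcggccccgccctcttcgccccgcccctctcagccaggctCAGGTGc

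Epcam held 2 E-boxes, Ap1m2 4 and Crb3 3. Of the 28 RefSeq promoters found for 21 genes of the list, 17 held at least 1 (60.7%, against 17.2% of all promoters), in a list put together from known targets. The 15 tested targets with an E-box had a median log2 fold change of -0.34, with 12 negative, and the 5 without one had -0.17, with 4 negative. Over all tested genes with a RefSeq promoter, the median was 0.05 both for the 1948 genes with an E-box and for the 8268 without. None of the 14 promoters of the mesenchymal effector genes held an E-box.

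**Figure D5:**
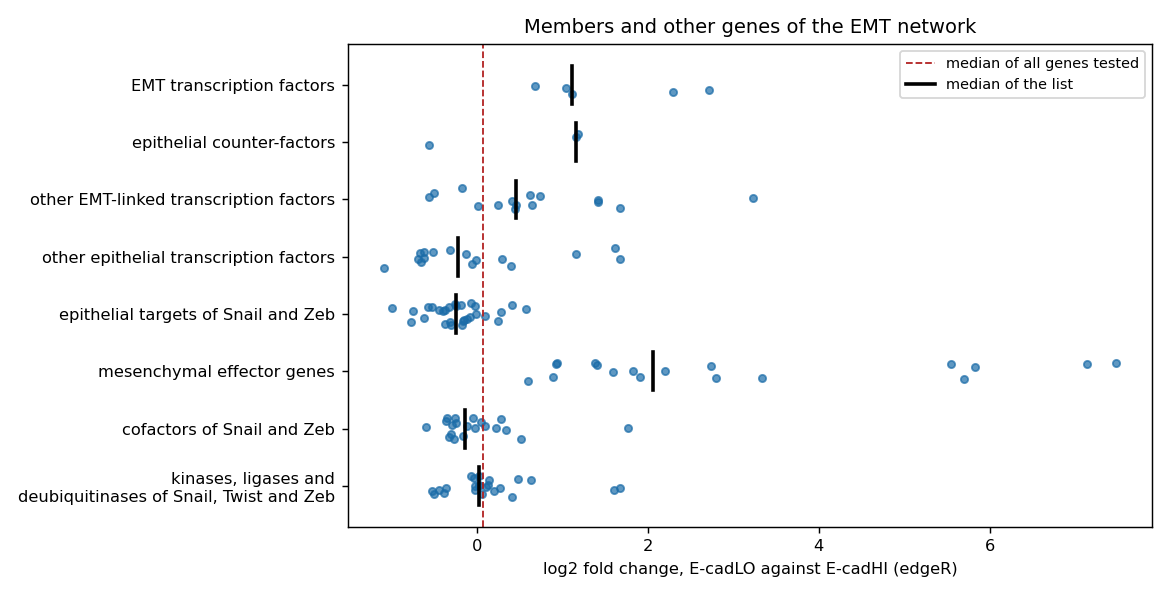
Log2 fold change of E-cadLO against E-cadHI (edgeR) for the members and 6 lists of other genes of the EMT network, with 1 point per tested gene, a black bar at the median of the list and a dashed line at the median of all genes tested (0.06). All 18 mesenchymal effector genes lie above 0, and 24 of 29 epithelial targets lie below 0.

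The mesenchymal effector genes, products of the program such as matrix proteins, all had a positive log2 fold change (18 of 18, median 2.06). In every mouse 9 of them were higher, beside 16.8% of all genes tested. The values were largest in mouse 57, with a median log2 ratio of 3.06 there against 0.45, 0.86 and 1.06 in mice 58, 67 and 70. In the blocked fit the log2 fold changes of Postn, Fn1 and Col3a1, which encode matrix proteins that fibroblasts make, were 4.43 (SE 1.69), 3.17 (SE 1.60) and 2.92 (SE 1.36). None of the 3 was called (adjusted p = 0.219, 0.306 and 0.28 by edgeR). Their log2 ratios in mouse 57 were 9.39, 10.99 and 7.33. Postn was lower in E-cadLO of mouse 70 (-0.30) and Col3a1 in mouse 58 (-0.08), while Fn1 was higher in 4 of 4 mice. Several genes of this list, Col1a1, Col1a2 and Col3a1 among them, are also fibroblast markers, and the part of fibroblast RNA was not tested.

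Of 15 other EMT-linked transcription factors tested, 12 had a positive log2 fold change (median 0.45). In the blocked fit Mef2c, which is also expressed by microglia and neurons, had 1.53 (SE 0.34, adjusted p = 0.101 by edgeR), Nfatc1 1.38 (SE 0.47) and Hmga2, a chromatin protein, 1.02 (SE 0.93). Mef2c went from 6.24 ± 2.96 normalized CPM in E-cadHI to 16.7 ± 2.57 in E-cadLO (SD, n = 4).

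Other epithelial transcription factors had lower values more often than higher ones, with 11 negative and 5 positive log2 fold changes of 16 (median -0.22). Lower in E-cadLO in every mouse were 7 of them, Grhl1, Elf5, Ehf, Gata3, Tfap2a, Tfap2b and Tfap2c, beside 14.2% of all genes tested. In the blocked fit the log2 fold change was -1.28 (SE 0.32, adjusted p = 0.123 by edgeR) for Elf5, a factor of milk-producing alveolar cells. Gata3, the luminal regulator, had -0.67 (SE 0.16, adjusted p = 0.123). Both were among the genes that DESeq2 with the block called lower. The other way went Klf4, at 1.63 (SE 0.64), and Trp63, the basal factor p63, at 1.49 (SE 1.47). Of the relatives of Grhl2, Grhl1 had -0.51 (SE 0.34) and Grhl3 -0.06 (SE 0.59) in the fit without the block.

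The cofactors through which Snail and Zeb repress, 20 genes, had 13 negative and 7 positive log2 fold changes (median -0.14). Ajuba, a LIM protein that binds the SNAG domain of Snail, stood at 16.6 ± 5.26 normalized CPM in E-cadHI and 56.6 ± 36.4 in E-cadLO (SD, n = 4) and was higher in every mouse. Its log2 fold change was 1.77 (SE 0.49, adjusted p = 0.269 by edgeR), and 1.55 (SE 0.34, adjusted p = 0.0943) with the replicate block, the smallest adjusted p of the blocked fit in the 6 lists. Ehmt2, the histone methyltransferase G9a, had -0.65 (SE 0.21) and the corepressor Ctbp2 -0.35 (SE 0.18) in the blocked fit.

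Of 23 kinases, ubiquitin ligases and deubiquitinases that set the stability of Snail, Twist and Zeb proteins, 14 had a positive and 9 a negative log2 fold change (median 0.03), near that of all genes. In the blocked fit Usp11, a deubiquitinase, had 1.47 (SE 0.43), Lats2, a Hippo pathway kinase that phosphorylates Snail, 1.36 (SE 0.45), and Btrc, a ligase subunit that marks Snail for degradation, -0.65 (SE 0.35). Gsk3b, a kinase that phosphorylates Snail ahead of this step, had 249 ± 70.9 normalized CPM in E-cadHI and 253 ± 62.0 in E-cadLO (SD, n = 4).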

How the data were processed

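Bulk mRNA libraries of E-cadHI and E-cadLO cells from 4 mice were compared. The authors mapped single reads with Hisat (HISAT2 2.1.0 in the submitters' processing notes) to GRCm38 and deposited whole-number counts per gene without normalization. The counting tool is given as Icount in the study's methods and as HTSeq in the processing notes, and neither states the use of strand or the handling of reads with several matches. All 8 count columns were used. Entries without a gene identifier (365, 0.0636 to 0.0954% of a library's counts) were left out, which left 31894 genes. Library totals of 9102781 to 15769200 put the limit of 3 counts at 0.190 to 0.330 CPM, and intervals cover counting error only.

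Library sizes were scaled by TMM in edgeR 4.0.16 (R 4.3.3), low genes were removed with filterByExpr by population, and the 4 E-cadLO libraries were set against the 4 E-cadHI libraries in its quasi-likelihood test. P-values were adjusted by the Benjamini-Hochberg method across all 13598 genes, and 0.05 was the threshold. The fit has no block, as the study's methods name DESeq2 and no block. The labels give the mouse of each library, and the 2 libraries of a mouse deviated together (r = 0.275 to 0.698, against at most 0.153 between mice), so a fit with the mouse as replicate block is given beside it. Alternatives were DESeq2 1.42.0 with and without the block, DESeq2 size factors, no filter, a filter of 10 counts in every library, pseudocounts of 0.1 and 2 CPM for ratios, leaving out each mouse, and, chosen after seeing the data, leaving out the E-cadLO library of mouse 57. TPM used exonic lengths of GENCODE M21. Promoters and miRNAs came from RefSeq, and 3′ UTRs from GENCODE M21. The fits were tested on simulated data, where DESeq2, with the block most of all, had a larger share of false calls than edgeR. The simulated counts held no difference between mice, unlike these libraries, so they cannot give the share of false calls of the blocked fits here.

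The members and lists were chosen with earlier results of these data known. Named were all members, Cdh1, in each list the genes called with or without the block (at most 6, by smallest p) or else those with the largest absolute blocked log2 fold change up to 3, the 3 genes most like each tested member over the 8 libraries, and overlapping genes. Other genes named were chosen after their values were seen. Some genes that this rule names are not reported here.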

Additional observations from a re-analysis of the deposited data

Results flagged for a closer look

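A library was held to stand apart where its gap to the nearest of the others, as a share of the range of its group of 4, passed Dixon's 95% limit. This was examined in 30 groups of values, for each member in E-cadHI, in E-cadLO and as log2 ratio, and 6 passed it, where chance gives about 1 in 20, or 1.5 of 30. A group with a single library above 0 passes in any case, as Snai2 did in E-cadLO and Twist2 in both populations. The chance share does not hold for such groups, so 6 cannot be weighed against 1.5. No cause was tested.

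Ovol1 reached 34.0 normalized CPM in the E-cadHI library of mouse 57, above the 14.4 to 17.7 CPM of the other E-cadHI libraries. Snai2 reached 16.2 normalized CPM in the E-cadLO library of mouse 57 and was at 0 in the other E-cadLO libraries, and in E-cadHI it reached 0.538 CPM in mouse 58, which rests on 7 counts. The log2 ratio of Snai3 was 2.59 in mouse 67, where E-cadHI had 3 counts. For Twist2, the values of 0.0878 CPM in E-cadHI of mouse 70 and 0.0673 CPM in E-cadLO of mouse 67 each rest on 1 count.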

How the results depend on the processing

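Under all alternatives run, the 8 tested members kept the direction of their log2 fold change. The number of genes called higher in E-cadLO moved from 0 to 376 with DESeq2, 1010 with DESeq2 and the replicate block, 3 with at least 10 counts in every library, 23 without the filter and 99 with the replicate block, and the number called lower from 0 to 40 with DESeq2 and 201 with DESeq2 and the block. With the replicate block and a mouse left out, 0 to 425 genes were called higher and 0 to 24 lower. Mouse 57 gave the upper ends, and 63 genes were called higher and 3 lower without mouse 58, none without mouse 67 and 2 higher without mouse 70. Without the block, leaving out any mouse or the E-cadLO library of mouse 57 called no gene. Of the members, 1 was called by DESeq2 with the block (Ovol1, 1.12, adjusted p = 0.00931), and 2 by edgeR with the replicate block without mouse 57 (Zeb2, 2.14, adjusted p = 0.0101, and Ovol1, 1.29, adjusted p = 0.0443). Over its 14 alternatives the adjusted p of Zeb2 ranged from 0.0101 to 0.68, and over its 15 that of Ovol1 from 0.00931 to 0.696. Of the list genes, 4 were called higher with DESeq2, 7 higher and 2 lower with DESeq2 and the block, and 2 higher and 1 lower with the replicate block without mouse 57. Of all genes, these fits called 2.48% higher, 6.77% higher and 1.35% lower, and 3.06% higher and 0.173% lower. In edgeR with all mice the replicate block changed the call of no member, and in DESeq2 it brought the call of Ovol1. With a mouse left out, the mean log2 ratio of Snai2 ranged from -0.351 (without mouse 57) to 1.62, and that of Twist2 from -0.0778 to 0.0607 (without mouse 70), so that both turned from the values over 4 mice (0.95 and -0.01). The cause of these differences was not tested, other than that leaving out a mouse leaves 3. With 4 mice the exact sign-flip test cannot go below 0.125, and members with under 3 counts in a library are at the limit of detection there.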
